A study of Mus musculus with 48 samples.

Results

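Ldb2, Bmp3, Cntnap4, Adgra1, Slc36a1 and Sptb are 6 of the 24421 genes counted in hippocampal Cornu Ammonis (CA) tissue. They were chosen because the effect of deleting the cannabinoid CB1 receptor on them differed between the glutamatergic and the GABAergic knockout line after an open field exposure. In that contrast 87 of 15325 genes tested (0.568%) passed an adjusted p of 0.05 by edgeR's quasi-likelihood test, 85 of them with KO effects of opposite sign in the lines, and all 6 genes are among the 87, between ranks 9 and 22 by p-value. The values of that contrast are therefore a description of how the genes were chosen. At its edge, Papl was the last gene past the threshold, with a difference between the lines of 1.53 ± 0.36 (SE) on the log2 scale, and Cdh18 the first gene outside it, with 0.44 ± 0.10.

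The tissue came from 48 male mice, 1 mouse per library, 8 weeks old by the sample labels. In the Glu-CB1 line (nex-cre x CB1f/f), Cre recombinase driven by the regulatory elements of nex1, a gene of glutamatergic principal neurons, recombines the floxed CB1 gene. In the GABA-CB1 line (dlx5/6-cre x CB1f/f) the regulatory elements of dlx5/6, genes of forebrain GABAergic neurons, drive Cre. The control for a KO group is the CB1-WT littermates from the same line. In the basal state, from the home cage, the Glu-CB1 line had 5 CB1-WT and 7 KO libraries and the GABA-CB1 line 6 of each genotype. After 5 min in an open field arena there were 5 CB1-WT and 7 KO libraries in the Glu-CB1 line, against 7 CB1-WT and 5 KO libraries in the GABA-CB1 line. By the published account the tissue was isolated after a delay, not directly at the end of the exposure. Cnr1, which encodes CB1, followed the labels in every library, with group means between 350 and 379 CPM in CB1-WT, between 221 and 228 CPM in Glu-CB1-KO and between 135 and 148 CPM in GABA-CB1-KO mice. Levels are given as CPM, the count scaled to the library's total after TMM normalization, and library totals ran from 25892654 to 34091080 counts. Library numbers in the labels run by line and state, so line, state and library order cannot be told apart. KO and CB1-WT libraries of a comparison share a block of numbers, but within a block the numbers run largely by genotype. Genotype and library order within a block therefore cannot be fully told apart. Markers of CA1 pyramidal cells, all 6 of them detected, summed to group means between 755 and 836 CPM, and those of dentate granule cells, which the dissection was to remove, to between 149 and 177 CPM. In 3 libraries the summed choroid plexus markers exceeded 600 CPM: 4030 CPM in GABA-CB1-KO open field replicate 4, 1487 CPM in GABA-CB1-WT basal replicate 3 and 626 CPM in Glu-CB1-KO basal replicate 6.

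CB1 is a presynaptic receptor that lowers transmitter release, and in the hippocampus it acts on glutamatergic terminals as well as, at higher density, on terminals of GABAergic interneurons. The 6 genes belong to different families. Ldb2 encodes a cofactor that bridges LIM-homeodomain and LIM-only transcription factors. Bmp3 encodes an atypical secreted ligand of the bone morphogenetic protein (BMP) family that antagonizes other BMPs. Cntnap4 encodes a neurexin-related adhesion protein of the contactin-associated family, known for its role at GABAergic synapses, and Adgra1 an orphan adhesion G protein-coupled receptor of the brain. Slc36a1 encodes a proton-coupled amino acid transporter of lysosomes, and Sptb the beta-I spectrin of the membrane skeleton of erythrocytes and neurons.

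The genes lie on 5 chromosomes of mm10 and are counted over all exons. Ldb2 (chr5:44472133-44799746, minus strand) and Bmp3 (chr5:98854439-98880960, plus strand) share chromosome 5 without overlapping each other. Cntnap4 is at chr8:112570043-112882707 (plus strand), Adgra1 at chr7:139834174-139878088 (plus strand), Slc36a1 at chr11:55204340-55236330 (plus strand) and Sptb at chr12:76580488-76710547 (minus strand). Per kilobase of exon, group means of Sptb were the highest, between 29.6 and 33.6 CPM, followed by Slc36a1 (16.5 to 20.1 CPM), Ldb2 (12.4 to 16.2 CPM), Adgra1 (10.2 to 13.7 CPM), Cntnap4 (5.39 to 6.52 CPM) and Bmp3 (0.61 to 1.19 CPM). Bmp3 was thus the least expressed of the genes, with 43 to 162 counts per library, where counting alone gives a coefficient of variation of 11.6% at the median of 74.5 counts. Sptb, with 7898 to 11781 counts, has a counting error of 0.99% at its median. Other genes listed inside these loci in the count table had at most 16 counts in any library. In GENCODE M21, Plekhg3 overlaps Sptb on the opposite strand, as the antisense transcripts Gm43507 and Gm45904 overlap Ldb2 and Cntnap4, and reads of both strands cannot be told apart if the library kit did not mark strand.

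The RefSeq promoter table (GRCm38.p6) matched 3 of the 6 genes, Adgra1, Slc36a1 and Sptb. Their 250 bases before the transcription start are shown, 5′ to 3′ on the gene's strand. Capitals mark the only matches to the letters searched, on both strands: TGACG (part of the CRE), CACGTG (an E-box, added after the data were seen) and GGGCGG (the GC box) or its complement CCGCCC.
Adgra1: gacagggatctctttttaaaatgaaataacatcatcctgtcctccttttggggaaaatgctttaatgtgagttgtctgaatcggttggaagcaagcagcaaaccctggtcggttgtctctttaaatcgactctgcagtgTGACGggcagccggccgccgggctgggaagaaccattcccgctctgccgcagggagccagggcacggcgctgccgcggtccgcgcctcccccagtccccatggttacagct
Slc36a1: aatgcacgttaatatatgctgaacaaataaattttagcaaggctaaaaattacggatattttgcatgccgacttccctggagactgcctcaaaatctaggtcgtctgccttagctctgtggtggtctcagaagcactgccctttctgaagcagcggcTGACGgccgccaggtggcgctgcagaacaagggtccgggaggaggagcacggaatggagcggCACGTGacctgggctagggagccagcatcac
Sptb: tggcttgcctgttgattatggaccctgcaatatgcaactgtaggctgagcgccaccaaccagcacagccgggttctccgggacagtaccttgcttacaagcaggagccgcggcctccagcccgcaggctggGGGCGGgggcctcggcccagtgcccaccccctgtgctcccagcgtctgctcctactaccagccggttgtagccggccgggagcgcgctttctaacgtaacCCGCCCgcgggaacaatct
The windows are chr7:139833924-139834173 for Adgra1, chr11:55204090-55204339 for Slc36a1 and chr12:76710548-76710797 for Sptb. TGACG stands 111 bases before the start in Adgra1 and 93 bases before it in Slc36a1, and 17.8% of the 32851 promoters of the table hold it. CACGTG, 31 bases before the start of Slc36a1, is held by 6.02% of promoters, and the GC box, at 119 and 19 bases before the start of Sptb, by 32.7%. The GC content was 56.4% in Adgra1, 53.2% in Slc36a1 and 65.2% in Sptb, against a median of 52.4% over all promoters. The full CRE (TGACGTCA), the AP-1 letters TGANTCA, the EGR letters GCGTGGGCG and TATAAA were in none of these windows, and 1.55%, 6.75%, 0.536% and 12.4% of all promoters hold them. These matches are descriptions of the sequence, and their relation to the direction of the KO effects was not tested.

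After the open field, the values that chose the genes were as follows. Ldb2, Bmp3, Cntnap4, Adgra1 and Slc36a1 exceeded their CB1-WT level in Glu-CB1-KO mice and fell short of it in GABA-CB1-KO mice, and Sptb had the reverse pattern. Fewer cells of a type and less RNA per cell cannot be told apart in this bulk tissue. The genotypes were fully separated for 3 of the 6 genes in the Glu-CB1 line (Bmp3, Adgra1 and Sptb), where 0.716% of all genes tested did not overlap, and for 3 of 6 in the GABA-CB1 line (Ldb2, Slc36a1 and Sptb), where 0.98% did not. Taken line by line, 2 of the 6 genes (Bmp3 and Adgra1) passed an adjusted p of 0.05 in the Glu-CB1 line, where 0.272% of genes did, and 0 of 6 in the GABA-CB1 line, where 0.0199% did. With DESeq2 these were 5 and 4 of the 6, while the calls over all genes went from 41 to 123 and from 3 to 152. As the genes were chosen from these libraries, nothing is read from these counts.

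Ldb2, the transcriptional cofactor, was at 38.5, 35.3, 31.7, 27.99 and 32.1 CPM in the 5 Glu-CB1-WT libraries after the open field and between 36.1 and 49.5 CPM (median 40.8) in the 7 Glu-CB1-KO libraries. In the GABA-CB1 line it was between 37.99 and 53.8 CPM (median 40.6) in CB1-WT and at 27.98, 36.1, 36.3, 30.99 and 33.5 CPM in GABA-CB1-KO. Every GABA-CB1-KO library was below every CB1-WT library of that line, while in the Glu-CB1 line 1 CB1-WT library lay within the KO range. On the log2 scale the KO effect of the Glu-CB1 line was 0.35 ± 0.09 (SE), a 1.28-fold level, and that of the GABA-CB1 line -0.37 ± 0.09, a 1.30-fold lower level.

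Bmp3, the secreted ligand, differed most in relative terms. It was at 1.73, 2.35, 2.18, 2.47 and 2.05 CPM in Glu-CB1-WT and between 2.96 and 4.00 CPM (median 3.56) in Glu-CB1-KO, without overlap. In the GABA-CB1 line it was between 1.93 and 3.65 CPM (median 2.43) in CB1-WT and at 2.15, 2.06, 1.71, 2.00 and 1.57 CPM in GABA-CB1-KO, with overlap. The KO effects were 0.67 ± 0.11 and -0.48 ± 0.16, so that the lines differed by 1.15 ± 0.19 on the log2 scale.

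Cntnap4, the adhesion protein, was at 28.01, 30.3, 27.6, 28.7 and 24.6 CPM in Glu-CB1-WT and between 29.9 and 34.4 CPM (median 31.3) in Glu-CB1-KO. In GABA-CB1-WT it was between 27.9 and 32.9 CPM (median 31.2), and in GABA-CB1-KO at 24.7, 28.1, 27.4, 25.2 and 25.4 CPM. In each line a single library crossed into the range of the other genotype. The KO effects were 0.18 ± 0.05 and -0.25 ± 0.05, a difference between the lines of 0.43 ± 0.07.

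Adgra1, the adhesion receptor, was at 48.9, 54.4, 50.8, 45 and 42.4 CPM in Glu-CB1-WT and between 60.0 and 69.0 CPM (median 63.7) in Glu-CB1-KO, without overlap. In the GABA-CB1 line the groups overlapped, with 51.7 to 67.7 CPM (median 53.3) in CB1-WT and 48.3, 49.7, 56.0, 49.5 and 49.95 CPM in GABA-CB1-KO. The library at 56.0 CPM stood apart from the other 4. The KO effects were 0.43 ± 0.06 and -0.18 ± 0.07.

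Slc36a1, the lysosomal transporter, had smaller effects and little spread. It was at 96.3, 98.8, 97.6, 95.2 and 96.0 CPM in Glu-CB1-WT and between 98.2 and 111 CPM (median 107) in Glu-CB1-KO, where the lowest KO library lay below the highest CB1-WT library. It was between 96.5 and 105 CPM (median 98.8) in GABA-CB1-WT and at 91.0, 92.4, 94.3, 89.3 and 84.5 CPM in GABA-CB1-KO, without overlap. The KO effects were 0.13 ± 0.03 and -0.15 ± 0.04, which are 1.097-fold higher and 1.108-fold lower levels.

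Sptb, the spectrin, ran the other way and did not overlap in either line. It was at 351, 336, 343, 349 and 365 CPM in Glu-CB1-WT and between 274 and 330 CPM (median 311) in Glu-CB1-KO. It was between 300 and 337 CPM (median 321) in GABA-CB1-WT and at 344, 346, 341, 347 and 353 CPM in GABA-CB1-KO. The KO effects were -0.17 ± 0.04 and 0.11 ± 0.03, and the lines differed by -0.28 ± 0.05. Sptb is also an erythrocyte gene. Of 6 erythroid markers, 2 had any count, and these summed to at most 2.55 CPM in a library. The 4 globin genes among them are listed at 0 in all libraries, so blood content cannot be read from this list.

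**Figure D1:**
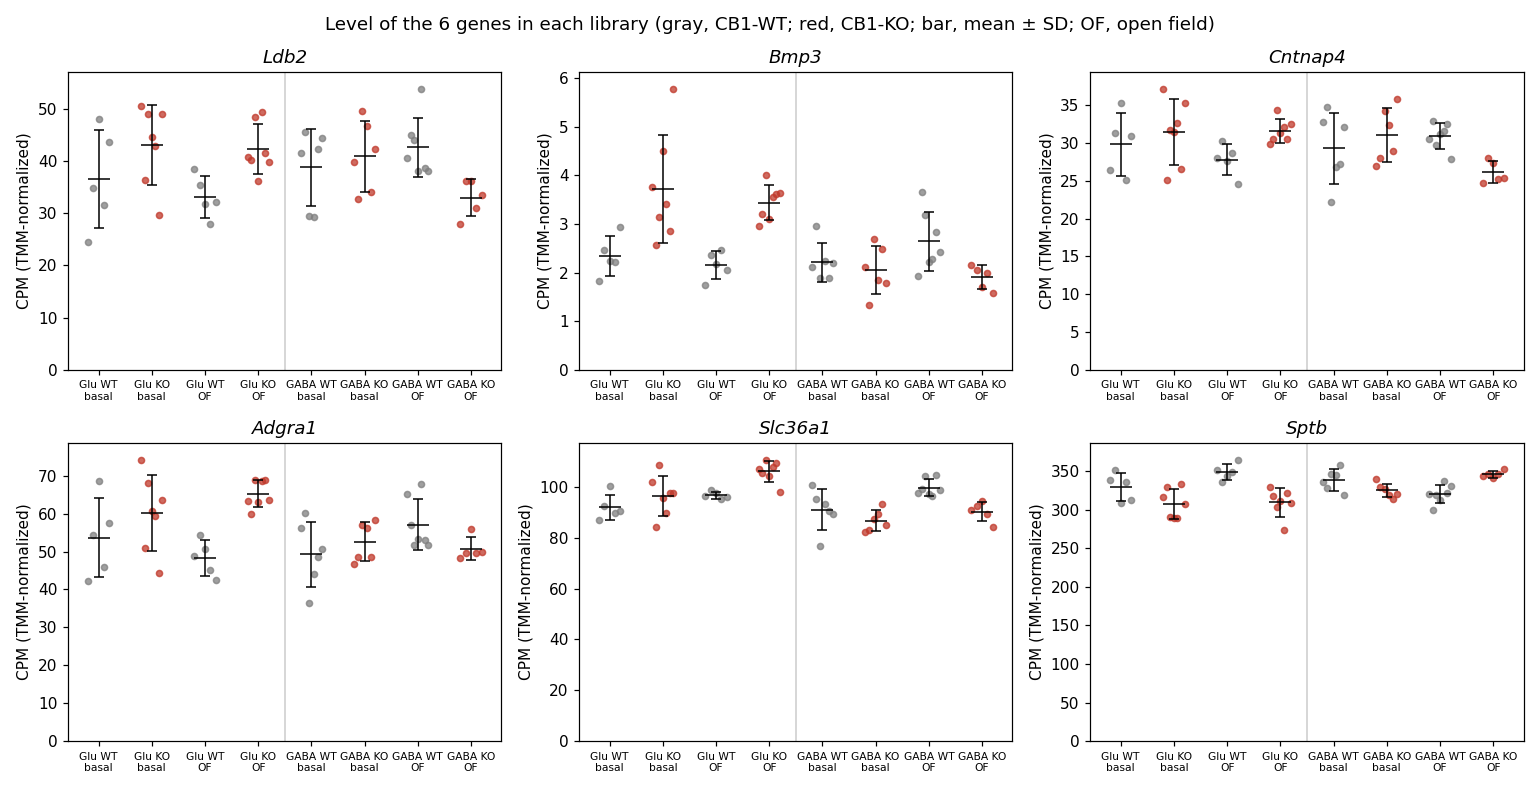
Level of each of the 6 genes in CPM (linear axis from 0) in each library of the 8 groups of line, genotype and state, with the mean ± SD of each group. After the open field, the Glu-CB1-KO libraries of Adgra1 (60.0 to 69.0 CPM) sit above all Glu-CB1-WT libraries, and the GABA-CB1-KO libraries of Ldb2 (27.98 to 36.3 CPM) sit below all GABA-CB1-WT libraries, whereas in the basal groups the genotypes overlap for every gene.

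Over the 8 groups, the ratio of the highest to the lowest group mean was 1.13 for Sptb, 1.21 for Cntnap4, 1.22 for Slc36a1, 1.31 for Ldb2, 1.35 for Adgra1 and 1.96 for Bmp3. GABA-CB1-KO mice after the open field had the lowest mean of Ldb2 (32.97 ± 3.52 CPM, SD, n = 5), Bmp3 (1.90 ± 0.25 CPM) and Cntnap4 (26.1 ± 1.5 CPM). Glu-CB1-KO mice after the open field had the highest mean of Cntnap4 (31.6 ± 1.5 CPM, n = 7), Adgra1 (65.2 ± 3.6 CPM) and Slc36a1 (106 ± 4.2 CPM). Glu-CB1-KO mice in the basal state had the highest mean of Ldb2 (43.1 ± 7.7 CPM, n = 7) and Bmp3 (3.72 ± 1.11 CPM) and the lowest mean of Sptb (308 ± 19.2 CPM). When the 8 means of a gene were put in order, all 7 neighbouring pairs differed by less than the larger of their SDs for Ldb2, Cntnap4, Adgra1 and Sptb. For Bmp3 and Slc36a1 this held for 6 of 7 pairs, the exception being the step from GABA-CB1-WT to Glu-CB1-KO after the open field, from 2.64 to 3.44 CPM and from 99.8 to 106 CPM. Ordering the means makes the steps between neighbours small, so nothing is read from this about groups further apart in the order.

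The basal libraries were not used to choose the genes, and there the same contrasts could be tested. None of the 6 genes passed an adjusted p of 0.05 for the KO effect in the Glu-CB1 line, where 3 of 15138 genes (0.0198%) did. None of the 6 passed in the GABA-CB1 line, where 37 of 15082 genes (0.245%) did, and none for the difference of the KO effect between the lines, where 43 of 15390 genes (0.279%) did. At an unadjusted p of 0.05, 541, 1230 and 1317 genes passed in these tests, Bmp3 and Sptb among them in the Glu-CB1 line and Bmp3 for the difference, and DESeq2 also called 0 of the 6 in each. With 1 mouse per library, p-values measure the spread between mice. KO and CB1-WT libraries of the basal state overlapped for all 6 genes in both lines, where 0.205% (Glu-CB1) and 0.696% (GABA-CB1) of genes did not overlap.

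Bmp3 came nearest to its open field pattern. It was at 1.82, 2.47, 2.25, 2.21 and 2.93 CPM in Glu-CB1-WT and at 2.56, 2.86, 3.15, 3.42, 3.76, 4.51 and 5.78 CPM in Glu-CB1-KO mice, so that 1 CB1-WT library lay above the 2 lowest KO libraries. Here the KO effect was 0.67 ± 0.19 on the log2 scale (95% interval 0.24 to 1.09, adjusted p = 0.999 by edgeR). In GABA-CB1-KO mice Bmp3 was between 1.34 and 2.69 CPM, against 1.88 to 2.96 CPM in CB1-WT, with an effect of -0.12 ± 0.16 (adjusted p = 0.858). The lines differed by 0.79 ± 0.26 (95% interval 0.24 to 1.33, adjusted p = 0.336 by edgeR), which fails the correction over all genes.

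For the other genes, too, the basal difference between the lines did not pass the threshold. Over the 24 basal libraries Ldb2 ranged from 24.5 to 50.6 CPM, Adgra1 from 36.3 to 74.2 CPM and Cntnap4 from 22.2 to 37.2 CPM. Slc36a1 ranged from 76.8 to 109 CPM and Sptb from 289 to 358 CPM. For each of them KO and CB1-WT values were interleaved. Ldb2 gave 0.24 ± 0.16 for the Glu-CB1 and 0.08 ± 0.13 for the GABA-CB1 line, with a difference of 0.16 (95% interval -0.30 to 0.62, adjusted p = 0.874 by edgeR). Adgra1 gave 0.16 ± 0.13 and 0.09 ± 0.10, with a difference of 0.07 (95% interval -0.30 to 0.43, adjusted p = 0.942). Cntnap4 gave 0.07 ± 0.10 and 0.08 ± 0.10, with a difference of -0.01 (95% interval -0.33 to 0.31, adjusted p = 0.991). These 3 genes were thus above CB1-WT on average in both KO lines at baseline. Slc36a1 gave 0.07 ± 0.06 and -0.07 ± 0.05, opposite in sign, with a difference of 0.14 (95% interval -0.03 to 0.30, adjusted p = 0.672). Sptb gave -0.10 ± 0.05 and -0.06 ± 0.03, below CB1-WT in both lines, with a difference of -0.04 (95% interval -0.16 to 0.08, adjusted p = 0.874). Whether the difference between lines changed with the state was not tested, since one side of it chose the genes.

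**Figure D2:**
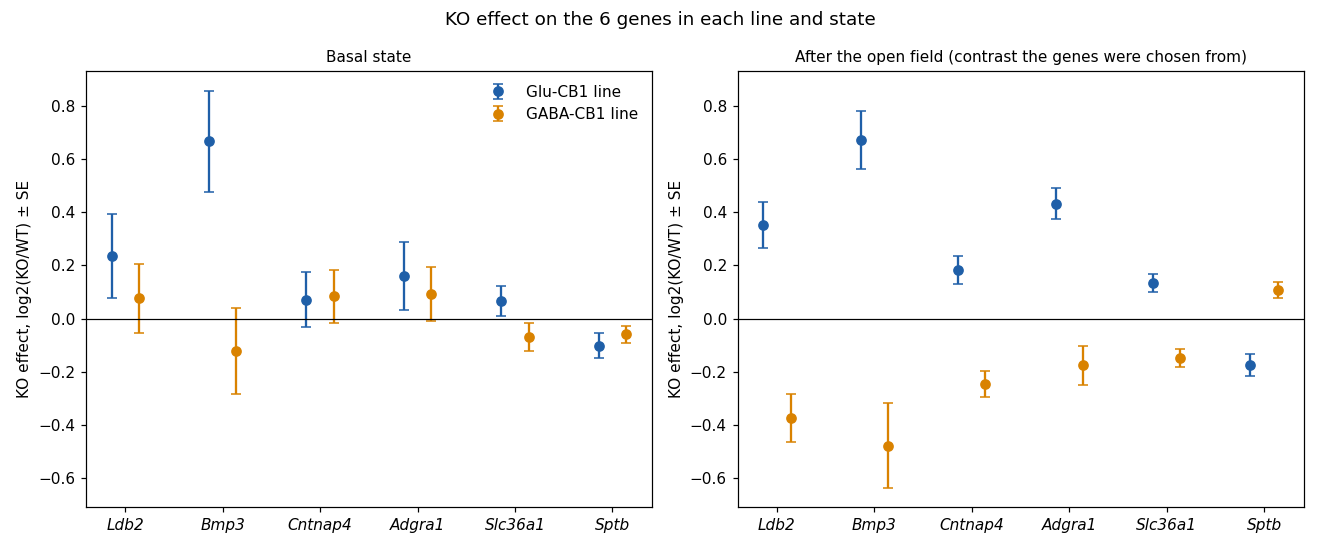
KO effect on each gene, log2 of KO over CB1-WT ± SE from edgeR, for the Glu-CB1 (blue) and GABA-CB1 (orange) lines, at baseline (left) and after the open field (right), the contrast from which the genes were chosen. On the right all 6 genes have opposite signs in the lines, and on the left Bmp3 in the Glu-CB1 line (0.67 ± 0.19) lies farthest from 0.

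Basal CB1-WT mice of the lines were also compared, to see whether the genes differ without deletion or stimulus. None of the 6 genes passed the threshold by edgeR or DESeq2, and of all 15150 genes 0% did by edgeR, with 617 at an unadjusted p of 0.05. The difference Glu minus GABA line ranged from -0.08 ± 0.17 for Ldb2 to 0.12 ± 0.13 for Adgra1 on the log2 scale, with adjusted p between 0.969 and 0.990.

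The response to the open field itself was tested with both genotypes together, weighted by their share of the open field libraries. With these weights the open field mean is uncorrelated with the KO effect that chose the genes only where both genotypes spread equally. For Slc36a1 in the Glu-CB1 line the SDs after the open field were 1.43 CPM in CB1-WT and 4.16 CPM in KO mice. The residual spread is also shared with the choice of the genes. None of the 6 genes passed the threshold of edgeR in the Glu-CB1 line, where 261 of 15355 genes (1.70%) did, or in the GABA-CB1 line, where 153 of 15374 (0.995%) did. At an unadjusted p of 0.05, 2084 and 1945 genes passed, Slc36a1 as the single member in each line. Slc36a1 had the smallest p-value of the 6 in both lines, with 0.11 ± 0.03 (95% interval 0.04 to 0.18, edgeR adjusted p = 0.0839) and 0.10 ± 0.03 (95% interval 0.03 to 0.17, adjusted p = 0.147). In the Glu-CB1 line this was 0.13 (adjusted p = 0.0170) without Glu-CB1-KO basal replicate 3 and 0.12 (adjusted p = 0.0428) without Glu-CB1-WT basal replicate 3, and DESeq2 gave an adjusted p of 0.0408. Slc36a1 passed in no other of the 31 alternatives. Its SD was 1.43 to 4.16 CPM in the open field groups and 4.19 to 8.08 CPM in the basal groups. As the choice of the genes used the open field spread, no response of Slc36a1 is read from these p-values. Bmp3 gave -0.11 ± 0.11 and 0.11 ± 0.12, and Adgra1 0.00 ± 0.07 and 0.10 ± 0.07. The other genes lay between -0.07 and 0.04 in both lines.

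Within the basal groups, the genes varied together from mouse to mouse. Over the 24 basal libraries, after removal of group means, 12 of the 15 pairs of genes had a correlation past an adjusted p of 0.05 in a two-sided permutation test within groups, 9 positive and 3 negative. The weakest of these had an absolute r of 0.450, which 12.8% of all pairs of genes with a mean of at least 1 CPM reached in the same libraries. The 3 negative ones were those of Sptb with Ldb2, Cntnap4 and Adgra1. All 10 pairs without Sptb were positive and all 5 with Sptb negative, including the pairs that did not pass. Whether these signs bear on the KO effects used for the choice was not tested. Cntnap4 and Adgra1 had r = 0.927 and rho = 0.917 (permutation p = 1e-05 each, the smallest these permutations can give, adjusted p = 7.5e-05), and r = 0.914 without the 2 libraries farthest from the median of Cntnap4. Ldb2 and Adgra1 had r = 0.901 and rho = 0.861 (permutation p = 1e-05, adjusted p = 7.5e-05), and r = 0.864 without the 2 farthest libraries. Ldb2 and Cntnap4 had r = 0.807 and rho = 0.764 (adjusted permutation p = 1e-04 and 5e-04), with 0.808 without the 2 farthest. Adgra1 and Sptb had r = -0.556 and rho = -0.547 (adjusted permutation p = 0.022 and 0.026), with -0.475 without the 2 farthest. Cntnap4 and Slc36a1 fell from r = 0.630 (rho = 0.557, adjusted permutation p = 0.0093 and 0.026) to 0.409 without the 2 farthest libraries. Bmp3 was the loosest member, with r between 0.339 and 0.526 with the genes of its own direction. The pairs of Sptb with Bmp3 and Slc36a1 and that of Bmp3 with Slc36a1 had an adjusted p between 0.124 and 0.141. Without the 2 basal libraries rich in choroid plexus markers, the 3 largest correlations were 0.912, 0.871 and 0.766. Among the weaker pairs past the threshold, Bmp3 with Adgra1 went from 0.450 to 0.367 and Ldb2 with Sptb from -0.543 to -0.442. Of the pairs past the threshold only Adgra1 with Slc36a1 became stronger, from 0.662 to 0.673.

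In the 24 open field libraries, whose values chose the genes, the correlations within groups are given without a test. Ldb2 and Adgra1 had r = 0.606, Cntnap4 and Adgra1 r = 0.499 and Cntnap4 and Sptb r = -0.515. Of the 10 pairs without Sptb 8 were positive, and all 5 pairs with Sptb were negative. The exceptions were Bmp3 with Ldb2 (r = -0.01) and Bmp3 with Adgra1 (r = -0.208).

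**Figure D3:**
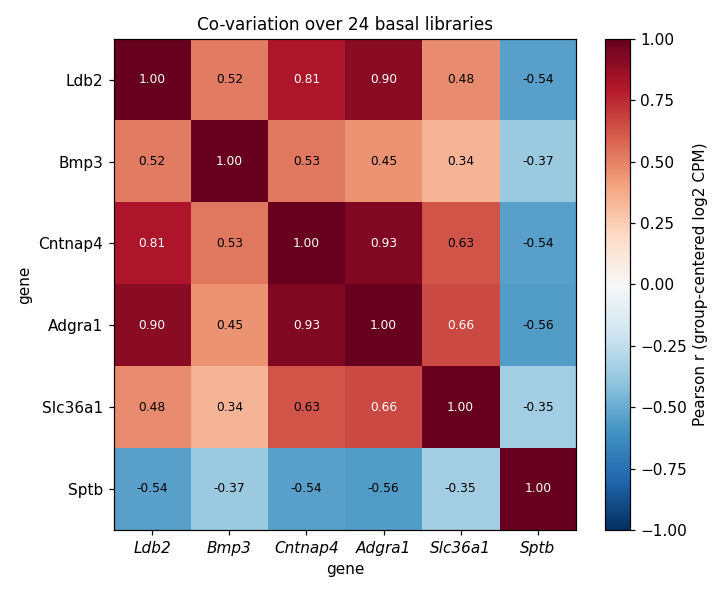
Pearson r between the 6 genes over the 24 basal libraries, from log2 CPM with group means removed; the color runs from -1 (blue) to 1 (red). Ldb2, Cntnap4 and Adgra1 form a tight block (r from 0.807 to 0.927), and Sptb is negative with each of the other genes.

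Among 13706 genes with a mean of at least 1 CPM, those most like each of the 6 in the same 24 basal libraries were the following, as a description without a test. Ldb2 was most like Nov (r = 0.946), a secreted matricellular protein of the CCN family, and Gabra3 (r = 0.944), a GABA-A receptor subunit. Adgra1 was most like Fezf2 (r = 0.941), a transcription factor of deep-layer cortical projection neurons, and Fgf11 (r = 0.933), an intracellular fibroblast growth factor homolog. For Cntnap4 the closest was Adgra1 itself, before Dpp10 (r = 0.911), an auxiliary subunit of potassium channels. Bmp3 was most like Pcdh15 (r = 0.855), a protocadherin, and Usp29 (r = 0.834), a deubiquitinase. For Sptb, Iqsec2 (r = 0.840), a synaptic exchange factor for Arf GTPases, was among the most alike. Slc36a1 was most like Mtmr4 (r = 0.836), a phosphoinositide phosphatase of endosomes, and Hmgxb3 (r = 0.801).

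The genes also varied with markers of the regions and cell types that a CA dissection can hold. Correlations with the summed level of 12 marker lists over the 24 basal libraries, 72 relations computed after the pairwise correlations were seen, passed an adjusted p of 0.05 in 28 cases. The weakest of these had an absolute r of 0.547, which 5.04% of the relations of all genes with these lists reached. Adgra1 rose and fell with the subiculum and cortex markers (Fn1, Nts, Rorb, Cux2, Fezf2 and Tshz2; r = 0.837, rho = 0.832, adjusted permutation p = 2.4e-04 and 4.8e-04, r = 0.783 without the 2 farthest libraries). Ldb2 did so with r = 0.811 (rho = 0.834, adjusted permutation p = 8.4e-04 and 4.8e-04, 0.779 without the 2 farthest). Against the thalamus markers (Tcf7l2, Lef1, Prkcd, Ramp3, Plekhg1 and Rgs16) Adgra1 had r = -0.834 (rho = -0.807, adjusted permutation p = 2.4e-04 and 5.4e-04, -0.766 without the 2 farthest). Ldb2 had r = -0.819 with the CA3 and CA2 markers (rho = -0.824, adjusted permutation p = 2.4e-04 and 4.8e-04, -0.771 without the 2 farthest), with which Sptb had r = 0.664 (rho = 0.601, adjusted permutation p = 0.00796 and 0.0219, 0.662 without the 2 farthest). The interneuron markers went with Cntnap4 (r = 0.719, rho = 0.689, adjusted permutation p = 0.00194 and 0.00498, 0.670 without the 2 farthest). They also went with Bmp3 (r = 0.639, rho = 0.667, adjusted permutation p = 0.00762 and 0.00561, 0.635 without the 2 farthest). Slc36a1 went against the dentate granule cell markers (r = -0.741, rho = -0.682, adjusted permutation p = 0.00371 and 0.00484, -0.512 without the 2 farthest). The other relations past the threshold were those of Ldb2, Cntnap4 and Adgra1 with CA1 markers (r from 0.547 to 0.774), with choroid plexus markers (r from -0.733 to -0.633) and with dentate granule cell markers (r from -0.705 to -0.646), of Bmp3, Cntnap4 and Adgra1 with CA3 and CA2 markers (r from -0.727 to -0.565), and of Slc36a1 with microglia markers (r = -0.605). Interneuron markers with Ldb2 (r = 0.557), Adgra1 (r = 0.554) and Sptb (r = -0.590), thalamus markers with Ldb2 (r = -0.791), Cntnap4 (r = -0.746) and Sptb (r = 0.548), and subiculum and cortex markers with Cntnap4 (r = 0.658) make up the rest. Fezf2, the gene most like Adgra1, is on the subiculum and cortex list.

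**Figure D4:**
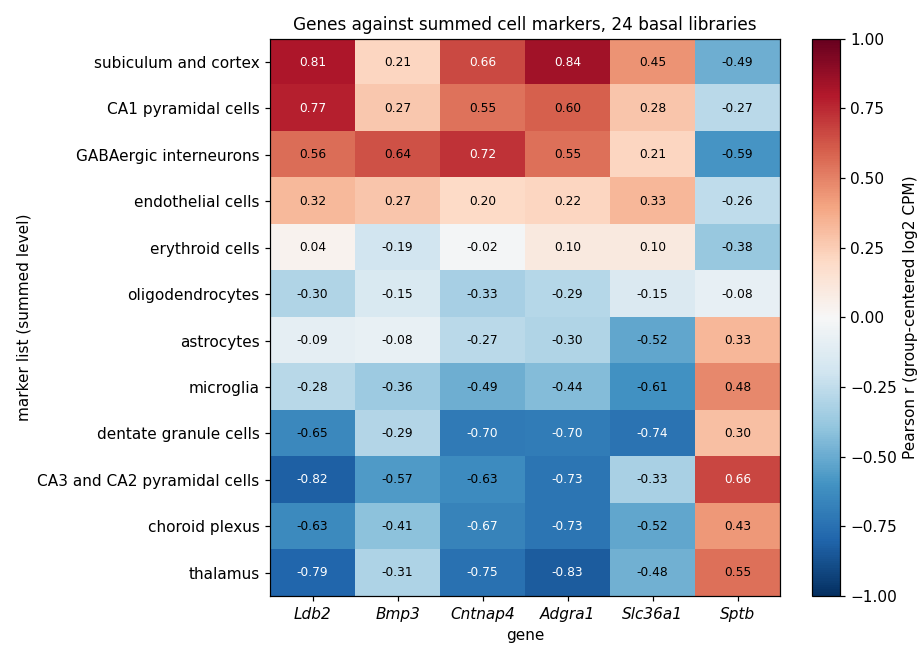
Pearson r of each gene (columns) with the summed level of each marker list (rows) over the 24 basal libraries, log2 scale with group means removed; the color runs from -1 (blue) to 1 (red). Ldb2, Cntnap4 and Adgra1 are positive with subiculum and cortex markers (0.66 to 0.84) and negative with thalamus markers (-0.75 to -0.83), and Sptb has the opposite signs.

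Single genes of these lists passed the adjusted threshold of edgeR in the basal state. Npy (interneurons) and Plekhg1 (thalamus) did so for the difference between the lines, and Bok (CA3 and CA2) for the GABA-CB1 KO effect. Some of the lists were also compared between the groups after the open field. The thalamus markers, all 6 detected, summed to between 74.8 and 81.3 CPM in Glu-CB1-KO and between 95.8 and 110 CPM in Glu-CB1-WT mice, without overlap. Of the 6, 4 were lower and 2 higher in Glu-CB1-KO mice, and Prkcd and Plekhg1 passed the adjusted threshold of edgeR. They did not separate the GABA-CB1 groups, at 82.1 to 114 CPM in KO and 83.8 to 108 CPM in CB1-WT. The 10 interneuron markers summed to between 938.0 and 1021 CPM in GABA-CB1-KO and between 1033 and 1096 CPM in GABA-CB1-WT, without overlap, and to 1037 to 1174 CPM in Glu-CB1-KO against 894 to 1099 CPM in Glu-CB1-WT. All 10 of them had a larger KO effect in the Glu-CB1 than in the GABA-CB1 line, with a median difference of 0.23 on the log2 scale, and 3 (Gad1, Sst and Npy) passed the adjusted threshold of edgeR. The CA3 and CA2 markers, like Sptb, were lower in Glu-CB1-KO (248 to 276 CPM against 263 to 314 CPM) and higher in GABA-CB1-KO (266 to 342 CPM against 217 to 289 CPM), with 0 of 6 past the threshold and a median difference between the lines of -0.32. The microglia, dentate granule cell and oligodendrocyte lists also each had 6 of 6 markers lower in Glu-CB1-KO and 4 of 6 higher in GABA-CB1-KO. Their median differences between the lines were -0.11, -0.08 and -0.11, with 0 markers past the threshold. The subiculum and cortex markers overlapped in both lines, at 158 to 200 CPM in Glu-CB1-KO against 129 to 187 CPM and at 115 to 220 CPM in GABA-CB1-KO against 145 to 246 CPM, and Fezf2 among them passed for the difference. The part of these marker levels in the KO effects on the 6 genes was not tested. Without the GABA-CB1-KO open field library with 4030 CPM of choroid plexus markers, the KO effects of the GABA-CB1 line, which chose the genes, were -0.35 ± 0.10 for Ldb2, -0.49 ± 0.17 for Bmp3, -0.23 ± 0.05 for Cntnap4, -0.17 ± 0.08 for Adgra1, -0.14 ± 0.04 for Slc36a1 and 0.11 ± 0.03 for Sptb.

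**Figure D5:**
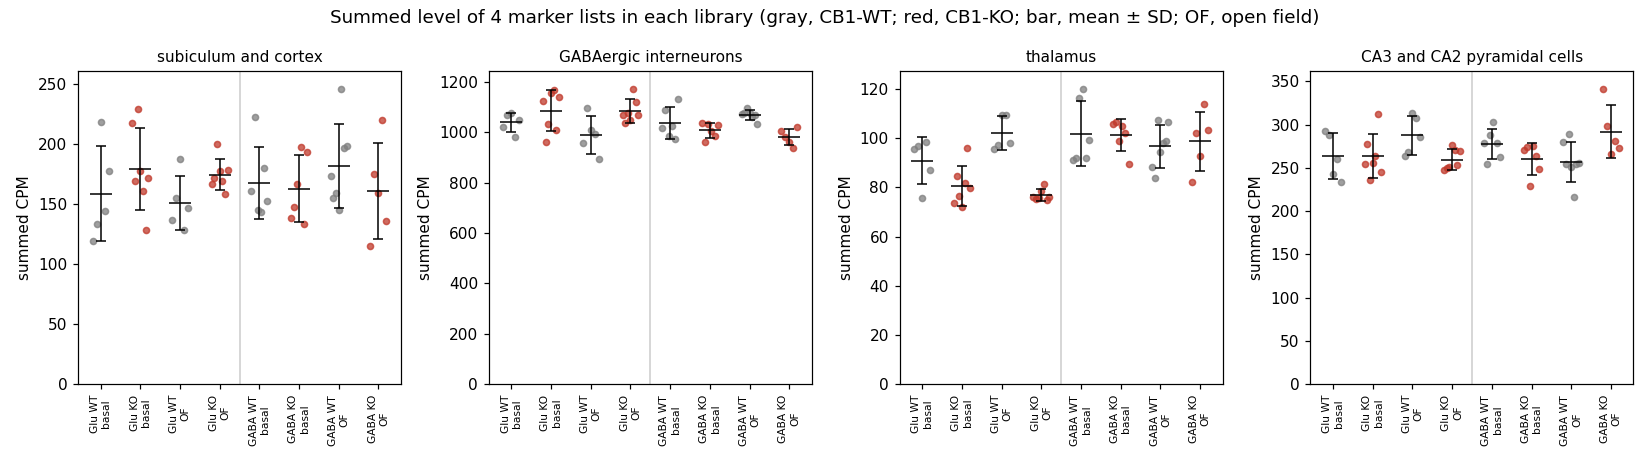
Summed CPM (linear axis from 0) of 4 marker lists in each library of the 8 groups, with the mean ± SD of each group. After the open field the thalamus markers of Glu-CB1-KO libraries (74.8 to 81.3 CPM) lie below all Glu-CB1-WT libraries, and the interneuron markers of GABA-CB1-KO libraries (938.0 to 1021 CPM) lie below all GABA-CB1-WT libraries.

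The partners and relatives of the 6 genes were followed in 6 lists with 127 genes, of which 126 are in the table and 114 were tested. By edgeR 0 of the 114 passed an adjusted p of 0.05 for the Glu-CB1 line in either state, with 5 at baseline and 14 after the open field at an unadjusted p of 0.05, and DESeq2 called 0 and 3. In the GABA-CB1 line 2 of 114 (1.75%) passed at baseline, where 0.245% of all genes did, and 0 after the open field, where 0.0199% did. At an unadjusted p of 0.05 these were 13 and 21, and DESeq2 called 2 and 1. Both genes called by edgeR belong to the LIM-domain network of Ldb2, of which 12 of 21 genes were tested. Lmo2, a LIM-only factor bridged by Ldb proteins, was lower in GABA-CB1-KO mice (-0.24 ± 0.04, adjusted p = 0.0390), and Lhx9, a LIM-homeodomain factor, was higher (0.23 ± 0.04, adjusted p = 0.0390). Leaving out any 1 of the 12 libraries left 0 or 1 companion gene past the threshold, and neither passed with the animal number range as a covariate or with the replicate block. Both also passed for the difference between the lines in the basal state, where 0.279% of all genes did, Lmo2 with 0.37 ± 0.07 (adjusted p = 0.00700) and Lhx9 with -0.51 ± 0.11 (adjusted p = 0.0436). There 1 or 2 companion genes passed when single libraries were left out, 1 with the replicate block and 0 with that covariate. After the open field 1 of 114 genes (0.877%) passed for the difference between the lines, where 0.568% of all genes did. With the replicate block 0 passed, and 21 had an unadjusted p under 0.05 in the main fit. The gene that passed was Lmo1, another LIM-only factor, with -0.38 ± 0.08 (adjusted p = 0.0172), at -0.15 ± 0.05 for the Glu-CB1 and 0.23 ± 0.05 for the GABA-CB1 line, opposite in sign to Ldb2.

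No gene of the other 5 lists passed by edgeR in a KO contrast or a difference between the lines. DESeq2 called 4 companion genes for the difference after the open field. For the BMP ligands, receptors, Smads, inhibitors and Id targets around Bmp3, 30 of 30 genes were tested, and their median difference between the lines was -0.02 at baseline and 0.03 after the open field on the log2 scale. For the contactin-associated proteins, contactins, neurexins and neuroligins around Cntnap4, 18 of 18 were tested, with medians of -0.08 and 0.04. The 17 adhesion G protein-coupled receptors related to Adgra1 had medians of 0.04 and -0.01. The 19 tested genes of the SLC36 family and lysosomal amino acid sensing had medians of 0.02 and -0.02, and the 18 tested genes of the spectrin, ankyrin and protein 4.1 membrane skeleton 0.00 and -0.02. Over all genes tested the medians were -0.00067 and -0.00441. In the response to the open field, Slc15a4, a lysosomal histidine and peptide transporter on the Slc36a1 list, rose in both lines, by 0.17 ± 0.04 (adjusted p = 0.0136) for Glu-CB1 and 0.19 ± 0.04 (adjusted p = 0.0250) for GABA-CB1 mice. In the GABA-CB1 line 0 companion genes passed without GABA-CB1-WT open field replicate 6, without its replicate 7, without GABA-CB1-WT basal replicate 3, or with the replicate block. Smad1, a transducer of BMP receptors, rose by 0.15 ± 0.03 (adjusted p = 0.0109) in the Glu-CB1 line, and its value of 0.08 ± 0.03 in the GABA-CB1 line did not pass (adjusted p = 0.271). Both genes were named after their values were seen, and the difference between the lines in these responses was not tested.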

How the data were processed

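RNA of hippocampal CA tissue was amplified and sequenced, 1 male mouse per library, and the groups of the 48 libraries follow the sample labels. The published group sizes of the GABA-CB1 open field groups are the reverse of the labels, and Cnr1 separates the libraries as the labels do. Per the labels and the methods, the authors trimmed reads, aligned them to mm10 with STAR 2.6.0a and deposited raw gene counts from featureCounts 1.6.2.

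The counts were tested with the quasi-likelihood test of edgeR 4.0.16 (R 4.3.3, TMM, filterByExpr), with Benjamini-Hochberg adjustment over all genes tested in a contrast and a threshold of 0.05. KO effects were fitted on the 12 libraries of a line and state, and differences between lines on the 24 of a state. DESeq2 1.42.0, other filters, scalings and covariates, a replicate block and leaving out each library were alternatives. The fits were tested on simulated data. Correlations used log2 CPM (prior count 2) less group means and 100000 permutations within groups, adjusted over the 15 pairs or the 72 relations with marker lists. Python 3.11.15 and scipy 1.17.1 were used. Motifs were searched in the 250 bases before each start.

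The named genes are the 6 members, the 2 genes with the highest r to each (mean of at least 1 CPM), companion genes past the threshold in a KO contrast, Cnr1, and marker genes that were called or at 0. One gene that this rule names is not reported here. Papl and Cdh18 mark the edge of the choice of members, and Slc15a4 and Smad1 were named after their values were seen. The members, lists and tests were chosen with earlier results of these data known. The marker correlations, the open field correlations, the shares of all genes reaching the same r, the CACGTG search and the removal of libraries with over 600 CPM of choroid plexus markers were added after seeing the data. No 2 libraries of the same group agreed within counting noise.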

Additional observations from a re-analysis of the deposited data

Results flagged for a closer look

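Of 48 checks of a gene in a group of 5 to 7 libraries, 2 found a library far from the others by Dixon's criterion at the 95% level, which chance alone meets in about 1 in 20 groups. Bmp3 was at 2.96 CPM in GABA-CB1-WT basal replicate 2, with the next library at 2.23 CPM. Adgra1 was at 56.0 CPM in GABA-CB1-KO open field replicate 3, with the next at 49.95 CPM.

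Among the companion genes, 3 had a KO effect that differed between the lines by edgeR's test of the difference itself. Lmo2 gave a log2 difference (Glu minus GABA line) of 0.37 and Lhx9 one of -0.51 at baseline, and Lmo1 one of -0.38 after the open field. The 6 genes themselves differ in this way by their choice.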

How the results depend on the processing

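After the open field 6 of the 6 genes passed for the difference between the lines, which chose them, 3 with all 48 libraries in one fit and 1 with the replicate block. In the Glu-CB1 line 2 passed, 5 with DESeq2, 1 with all 48 libraries and 0 with the block, and in the GABA-CB1 line 0, 4 with DESeq2. The replicate numbers did not pair the libraries: same-numbered libraries had correlations of -0.335 to 0.317, over 0.1 in at most 2 pairs of a comparison. For the open field response in the Glu-CB1 line, 1 of the 6 genes (Slc36a1) passed with DESeq2, and 0 to 1 when single libraries were left out. No response is read from this, since the open field libraries also chose the genes. DESeq2 called 1 companion gene for the GABA-CB1 and 3 for the Glu-CB1 open field KO effect (0 by edgeR) and 4 for the open field line difference (1 by edgeR).

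With the animal number range as a covariate, 5 uncalled values changed sign: Adgra1 open field response in the Glu-CB1 line (-0.0139), the CB1-WT difference of Cntnap4 (-0.0121) and Slc36a1 (-0.00385), the basal line difference of Cntnap4 (0.00762) and the basal GABA-CB1 KO effect of Ldb2 (-0.0175). Leaving out single libraries gave -0.00309 to 0.172 for Adgra1 and -0.0682 to 0.0573 for Cntnap4 in the basal line difference, -0.0314 to 0.0470 for Adgra1 in the Glu-CB1 open field response, and in the CB1-WT difference -0.0123 to 0.180 for Bmp3, -0.0438 to 0.0846 for Cntnap4, -0.206 to 0.0291 for Ldb2 and -0.0274 to 0.0501 for Slc36a1. The cause was not tested.

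Over all genes, calls by edgeR and DESeq2 were 3 and 12 (Glu-CB1 basal), 37 and 110 (GABA-CB1 basal), 43 and 79 (basal difference), 41 and 123 (Glu-CB1 open field), 3 and 152 (GABA-CB1 open field), 87 and 200 (open field difference), and 261 and 470 and 153 and 300 (responses in the Glu-CB1 and GABA-CB1 line). In the same order, the block left 8 (GABA-CB1 basal), 28, 3, 1 and 6 calls, and 40 for the GABA-CB1 response. The covariate left 7 (GABA-CB1 basal) and 21 (basal difference). The fit of all 48 libraries gave 7 (Glu-CB1 basal), 106 (GABA-CB1 open field), 53 (open field difference) and 473 (Glu-CB1 response). Leaving out single libraries gave 14 to 48 calls (Glu-CB1 open field), 2 to 11 (GABA-CB1 open field), 17 to 34 (GABA-CB1 basal), 3 to 5 (Glu-CB1 basal), 50 to 112 (open field difference), 29 to 47 (basal difference), 132 to 449 (Glu-CB1 response) and 76 to 283 (GABA-CB1 response). At 43 to 162 counts per library, counting error limits Bmp3 most.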
